A study of Homo sapiens with 6 samples.

Results

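The NRF2 targets described here are 9 genes of redox and NADPH metabolism (NQO1, HMOX1, TXNRD1, SRXN1, PGD, TALDO1, ME1, OSGIN1 and GSR), taken by symbol from the deposited table of read counts. All 9 were found among its 28675 genes, and all 9 passed the low-count filter that left 16226 genes for testing. The libraries came from MDA-MB-231 cells, an established human line from a triple-negative breast cancer (without estrogen receptor, progesterone receptor or HER2 amplification). In 3 libraries the cells overexpressed LARP6, a La-related protein that binds RNA, and in 3 libraries the cells carried a no-load control. The study concerned the RNAs that LARP6 binds and its effect on splicing, and the gene-level values address RNA amount only. The labels give no vector, no time after its introduction and no word on clones. Nor do they state that replicates were grown separately, so every p-value reflects variation among these 6 libraries that could be technical.

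NRF2, encoded by NFE2L2, is a transcription factor that the adaptor KEAP1 normally hands over for degradation. When oxidants or electrophiles modify KEAP1, NRF2 accumulates, pairs with a small MAF protein and binds antioxidant response elements near genes for detoxification, thiol reduction and NADPH supply, while BACH1 can occupy the same elements as a repressor. NADPH made by the pentose phosphate pathway and malic enzyme is the electron source for the reductases that the same program induces, and many tumours use it to withstand oxidative stress.

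The 6 libraries held 29409101 to 33387050 counts, and mitochondrial genes took 7.17% to 7.91% of them. LARP6 was at 1995 to 2198 CPM in LARP6 libraries and at 40.7 to 44.2 CPM in control libraries, so each library matched its label. CPM are counts scaled to library size and by TMM, a correction for differences in RNA composition between libraries. The TMM factors did not overlap either, at 1.003 to 1.016 in LARP6 libraries and 0.9835 to 0.9962 in control libraries. Of the markers of the line, VIM, CD44, EGFR, CAV1 and FOSL1 were all detected (149.6 CPM or more in each library), and ESR1 and PGR were at 0.221 CPM or less. ERBB2, the HER2 gene, was at 54.2 to 59.3 CPM and the epithelial cadherin gene CDH1 at 6.71 to 8.34 CPM. Markers of other cell types (PTPRC, CD3E, PECAM1, VWF, ALB, COL3A1, DCN and LUM) summed to 8.88 to 10.03 CPM in LARP6 libraries and 8.71 to 9.91 CPM in control libraries. CD3E, ALB and COL3A1 were each at 0 in at least 1 library. In bulk RNA, fewer cells that express a gene and less RNA per cell cannot be told apart.

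The promoter sequence of NQO1 is shown because it was the member that passed the test. Short windows of 3 other members are shown because they match the core sequence of the antioxidant response element. The sequences are RefSeq's on GRCh38.p14, 250 bases before to 50 bases after a transcript start that RefSeq gives, on the strand of the gene, and 7 of the 9 members had an entry. RefSeq's start can differ from the outermost start in GENCODE v29. The windows of NQO1, PGD and OSGIN1 and the window of the second TXNRD1 start lie inside the GENCODE spans of these genes. The motif searched was TGACNNNGC on both strands, which 13.3% of all 35116 promoter windows contain, and then the variant TGAGNNNGC, which 18.3% contain. Sequence outside these windows was not searched, and NRF2 binding was not measured in these libraries. The NQO1 window, chr16:69726511-69726810 on the minus strand, had no TGACNNNGC match and a single TGAGNNNGC match on the opposite strand, in capitals.
NQO1: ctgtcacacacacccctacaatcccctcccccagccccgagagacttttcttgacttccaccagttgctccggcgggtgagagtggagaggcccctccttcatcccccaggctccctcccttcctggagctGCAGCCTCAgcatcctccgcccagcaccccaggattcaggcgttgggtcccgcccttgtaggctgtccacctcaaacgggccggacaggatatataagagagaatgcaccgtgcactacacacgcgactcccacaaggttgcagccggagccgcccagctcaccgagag
Matches to TGACNNNGC occurred in 3 members, ME1, PGD and TXNRD1, and are in capitals in these windows with 10 bases on each side.
ME1, chr6:83431170-83431198, minus strand: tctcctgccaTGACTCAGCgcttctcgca
PGD, chr1:10398853-10398881, plus strand, match on the opposite strand: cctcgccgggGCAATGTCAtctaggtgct
TXNRD1, chr12:104215670-104215698, plus strand, first start: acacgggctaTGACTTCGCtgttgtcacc
TXNRD1, chr12:104286920-104286948, plus strand, second start, match on the opposite strand: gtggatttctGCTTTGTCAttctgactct
ME1 and the first TXNRD1 window each held a further TGACNNNGC match on the opposite strand. OSGIN1 had a TGAGNNNGC match only, and the SRXN1 and TALDO1 windows had neither motif.

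Among the 9 members, NQO1 rose in LARP6 libraries and the other 8 did not pass the test. Testing used edgeR's quasi-likelihood test with Benjamini-Hochberg adjustment over all 16226 genes and a threshold of 0.05, and adjusted p-values are edgeR's except where another tool is named. Over all genes tested, 6.03% passed in either direction, 2.43% as higher and 3.6% as lower, so 1 called member of 9 is read against that background. The median log2 fold change of the 9 members was 0.00013, beside 0.0038 over all genes tested, with 5 members above 0 and 4 below it. LARP6 and control CPM did not overlap for 4 members, NQO1 and TXNRD1 above and PGD and TALDO1 below. The background was 22.3% of genes without overlap, 10.6% above and 11.7% below.

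**Figure D1:**
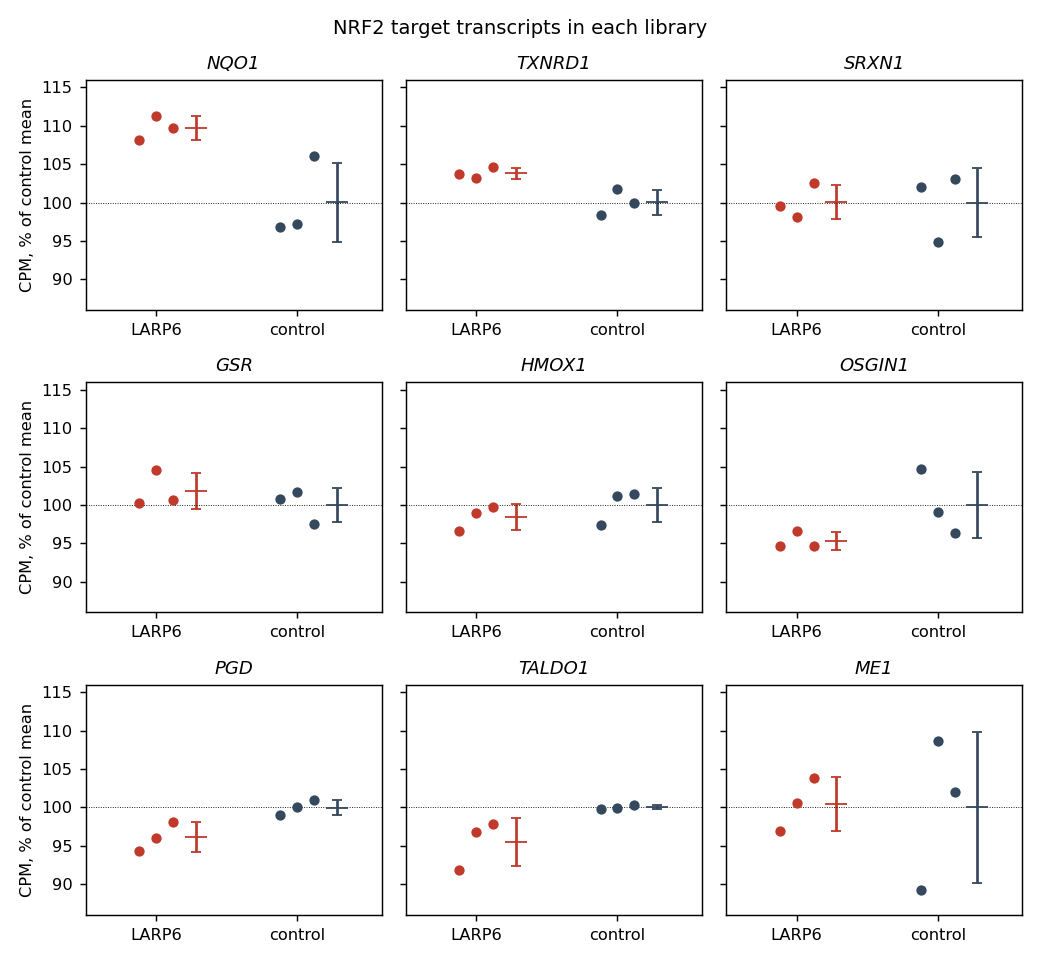
Level of each of the 9 members in each library, as CPM in percent of the mean of the 3 control libraries (vertical axis), with LARP6 libraries on the left and control libraries on the right of each panel. Points are libraries and bars are the mean ± SD of 3. NQO1 was at 108% to 111% in LARP6 libraries and 96.9% to 106% in control libraries, while the ranges of SRXN1, GSR, HMOX1, OSGIN1 and ME1 overlapped.

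NQO1 encodes a quinone reductase that transfers electron pairs from NADH or NADPH to quinones and is a standard readout of NRF2 activity. GENCODE v29 places it (ENSG00000181019.13) at chr16:69706996-69726951 of GRCh38, minus strand. It was at 209, 216 and 213 CPM in LARP6 libraries 1, 2 and 3, against 188, 188 and 205 CPM in control libraries 1, 2 and 3. Every LARP6 library was above every control library, and control library 3 was the nearest to them. The means were 213 ± 3.12 CPM in LARP6 libraries and 194 ± 10.04 CPM in control libraries (SD, n = 3 each). The log2 fold change was 0.13 ± 0.03 (SE, edgeR adjusted p = 0.00138), or 9.67% (95% interval 5.24% to 14.3%), and higher in 3 of 3 libraries.

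The change in NQO1 was small for a called gene. Of the 395 genes called higher, 323 had a larger log2 fold change, and their median was 1.16-fold against 1.10-fold for NQO1. Leaving out each library in turn gave NQO1 0.11 to 0.18 on the log2 scale with adjusted p from 3.1e-06 to 0.047, and the call held in all 6 fits. The call was lost with limma on the authors' FPKM values, where NQO1 was at 0.16 in each of 3 fits. The limma adjusted p was 0.303 on log2(FPKM + 1), 0.243 on log2(FPKM + 0.1) and 0.0606 on log2(FPKM + 1) over genes with a mean FPKM of at least 1. An antisense gene overlapping NQO1, AC092115.2, had 0.298% as many counts as NQO1.

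TXNRD1 encodes cytosolic thioredoxin reductase, the selenoprotein that uses NADPH to reduce thioredoxin. It was at 511, 508 and 515 CPM in LARP6 libraries 1, 2 and 3, against 485, 501 and 492 CPM in control libraries 1, 2 and 3. The groups did not overlap, and the nearest libraries were LARP6 library 2 and control library 2. The log2 fold change was 0.05 ± 0.03 (SE, edgeR adjusted p = 0.228), or 3.83% (95% interval 0.203% to 7.60%), which did not pass over all genes. Scaled by library size only, which took calls over all genes to 687 higher and 303 lower from 395 higher and 584 lower, TXNRD1 passed at 0.08 (adjusted p = 0.0259). With offsets for transcript GC content and length it was 0.014.

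PGD and TALDO1 belong to the pentose phosphate pathway, PGD as the 6-phosphogluconate dehydrogenase of its NADPH-forming branch and TALDO1 as transaldolase of its sugar-exchanging branch. PGD was at 283, 288 and 295 CPM in LARP6 libraries 1, 2 and 3, against 297, 300.2 and 303 CPM in control libraries 1, 2 and 3. TALDO1 was at 303, 319 and 323 CPM in LARP6 libraries 1, 2 and 3, against 330, 330 and 331 CPM in control libraries 1, 2 and 3. In CPM all 3 LARP6 libraries were below all 3 control libraries for both genes, and LARP6 library 1 was the lowest for both. In the authors' FPKM values TALDO1 did not overlap, but PGD did. PGD was at 75.35 to 78.75 FPKM in LARP6 libraries and 78.38 to 79.26 FPKM in control libraries.

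PGD differed by -0.06 ± 0.03 on the log2 scale (SE, edgeR adjusted p = 0.234), or -3.87% (95% interval -7.43% to -0.172%). TALDO1 differed by -0.07 ± 0.03 (SE, edgeR adjusted p = 0.144), or -4.51% (95% interval -8.03% to -0.844%). Neither difference passed over all genes, and without LARP6 library 1 the TALDO1 value was -0.04. With GC and length offsets PGD was at -0.03 and TALDO1 at -0.016. Scaled by library size only, PGD was at -0.03 and TALDO1 at -0.04 (edgeR adjusted p = 0.539 and 0.389).

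The GC content of the longest transcript differed among these genes. It was 46.0% for NQO1 and 44.8% for TXNRD1, against 52.9% for PGD and 56.5% for TALDO1. The other members spanned 39.5% for ME1 to 63.4% for OSGIN1. NQO1 kept its call when GC and length trends were taken out, at 0.11 (adjusted p = 0.00947).

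SRXN1 encodes sulfiredoxin, which repairs peroxiredoxins that peroxide has over-oxidised. It was at 120, 119 and 124 CPM in LARP6 libraries 1, 2 and 3, against 123, 115 and 125 CPM in control libraries 1, 2 and 3. All LARP6 values lay within the control range, and control library 2 was the lowest of the 6. The difference was 0.0091% (95% interval -4.50% to 4.73%, edgeR adjusted p = 0.999).

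GSR encodes glutathione reductase, which returns oxidised glutathione to its reduced form with NADPH. It was at 94.4, 98.4 and 94.7 CPM in LARP6 libraries 1, 2 and 3, against 94.8, 95.7 and 91.8 CPM in control libraries 1, 2 and 3. The groups overlapped, and the difference was 1.88% (95% interval -3.02% to 7.03%, edgeR adjusted p = 0.750).

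HMOX1 encodes heme oxygenase 1, which breaks heme into biliverdin, iron and carbon monoxide and is strongly inducible by heme and oxidants. It was at 27.0, 27.7 and 27.9 CPM in LARP6 libraries 1, 2 and 3, against 27.2, 28.3 and 28.3 CPM in control libraries 1, 2 and 3. LARP6 and control values overlapped, with library 1 lowest in each group. The difference was -1.56% (95% interval -9.18% to 6.71%, edgeR adjusted p = 0.885).

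OSGIN1 encodes an oxidative stress-induced growth inhibitor, and ME1 encodes cytosolic malic enzyme, which makes NADPH from malate. OSGIN1 was at 16.7, 17.1 and 16.7 CPM in LARP6 libraries 1, 2 and 3, against 18.5, 17.5 and 17.0 CPM in control libraries 1, 2 and 3, so the groups overlapped only between LARP6 library 2 and control library 3. Its difference was -4.67% (95% interval -13.8% to 5.39%, edgeR adjusted p = 0.672), the widest interval of the 9, on 499 to 563 counts per library. ME1 was at 33.3, 34.5 and 35.7 CPM in LARP6 libraries 1, 2 and 3, against 30.7, 37.3 and 35.0 CPM in control libraries 1, 2 and 3. Control libraries 1 and 2 enclosed all the other ME1 values, and the difference was 0.511% (95% interval -6.84% to 8.44%, edgeR adjusted p = 0.963).

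**Figure D2:**
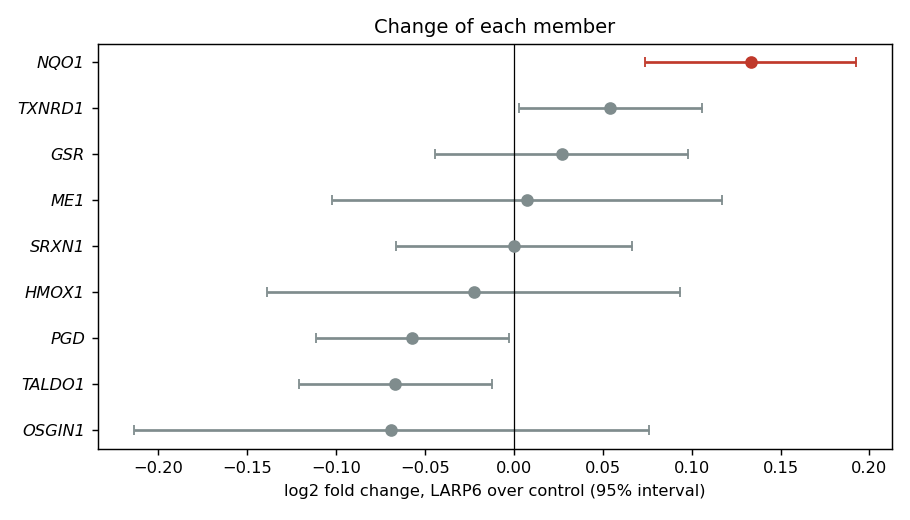
Log2 fold change of each member, LARP6 over control, with its 95% interval from the edgeR fit (points and bars, horizontal axis). NQO1, in red, passed the threshold. The intervals of TXNRD1, PGD and TALDO1 exclude 0 before adjustment for the 16226 genes tested, and those of the other 5 members include it.

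The spread between libraries also differed among members. In control libraries the coefficient of variation over 3 libraries was 0.224% for TALDO1, 1.01% for PGD and 1.63% for TXNRD1, and 5.18% for NQO1 and 9.85% for ME1. In LARP6 libraries it was 3.31% for TALDO1, 2.00% for PGD, 0.690% for TXNRD1, 1.47% for NQO1 and 3.47% for ME1.

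Ratios between members within a library do not depend on how libraries are scaled, and the pairs given were chosen after their values were seen. They are not corrected for GC content or length, and NQO1 and TXNRD1 had lower GC content than PGD and TALDO1. With GC and length offsets the log2 fold changes were 0.11 for NQO1, 0.014 for TXNRD1, -0.03 for PGD and -0.016 for TALDO1. The NQO1 to PGD ratio of counts was 0.740, 0.748 and 0.722 in LARP6 libraries 1, 2 and 3, against 0.632, 0.627 and 0.677 in control libraries 1, 2 and 3. The NQO1 to TALDO1 ratio was 0.690, 0.675 and 0.658 in LARP6 libraries, against 0.569, 0.570 and 0.620 in control libraries. Both ratios were higher in every LARP6 library than in any control library, by 14.2% and 15.0% between the means. The TXNRD1 to PGD ratio was likewise without overlap, at 1.77 ± 0.0285 in LARP6 libraries and 1.64 ± 0.0239 in control libraries (SD, n = 3 each). The PGD to TALDO1 ratio, between both pentose phosphate members, was 0.916 ± 0.0156 in LARP6 libraries and 0.909 ± 0.00725 in control libraries (SD, n = 3 each) and overlapped. The NQO1 to TXNRD1 ratio also overlapped, at 0.416 ± 0.00756 in LARP6 libraries and 0.393 ± 0.0214 in control libraries (SD, n = 3 each). Of the remaining NQO1 ratios, those to ME1 and GSR overlapped and those to HMOX1, SRXN1 and OSGIN1 did not.

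**Figure D3:**
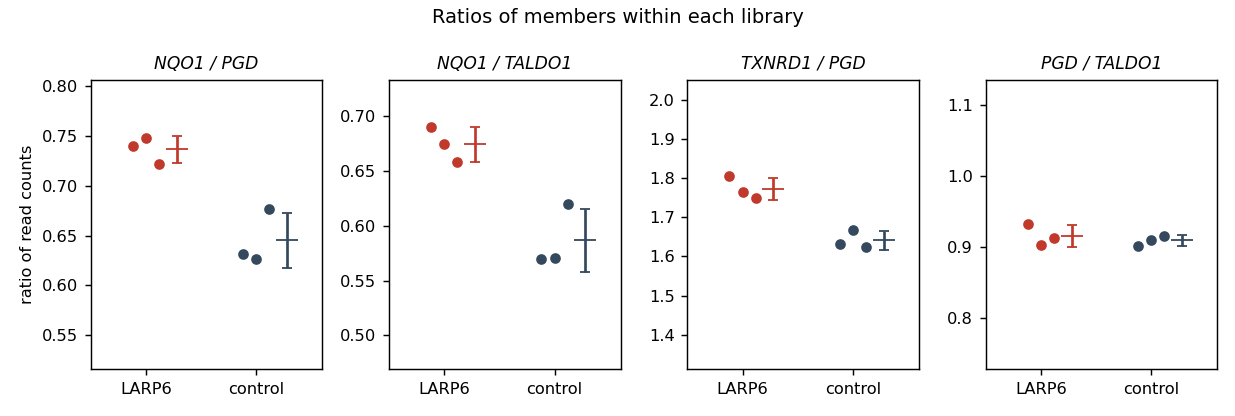
Ratio of read counts between named pairs of members within each library (vertical axes), LARP6 libraries on the left and control libraries on the right. Points are libraries and bars are the mean ± SD of 3. The NQO1 to PGD, NQO1 to TALDO1 and TXNRD1 to PGD ratios were higher in all LARP6 libraries, and the PGD to TALDO1 ratio overlapped.

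Levels of different genes were compared on the authors' FPKM values, which are per length. TALDO1 was the most abundant, at 96.5 FPKM in LARP6 libraries and 99.3 FPKM in control libraries. PGD followed at 77.0 FPKM in LARP6 libraries and 78.8 FPKM in control libraries, and TXNRD1 at 67.8 FPKM in LARP6 libraries and 64.2 FPKM in control libraries. NQO1 stood at 63.7 ± 1.04 FPKM in LARP6 libraries and 57.0 ± 2.76 FPKM in control libraries (SD, n = 3 each). The pentose phosphate enzymes and both of these reductases thus headed the list. SRXN1 had 42.5 FPKM in LARP6 libraries and 41.8 FPKM in control libraries, and GSR had 23.7 FPKM in LARP6 libraries and 22.8 FPKM in control libraries. HMOX1 had 10.6 FPKM in each group, ME1 had 8.85 to 9.52 FPKM in LARP6 libraries and 8.08 to 9.77 FPKM in control libraries, and OSGIN1, the lowest, had 2.69 FPKM in LARP6 libraries and 2.78 FPKM in control libraries. The order of the 9 genes was the same in both groups. Over the 6 libraries only TXNRD1 (63.5 to 68.4 FPKM) and NQO1 (55.3 to 64.6 FPKM) overlapped as neighbours in that order.

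Of 14 regulators of the program tested, 1 rose and 13 were not called, with a median log2 fold change of 0.0098. Over all genes tested, 2.43% were called higher and 3.6% lower, with a median of 0.0038. NFE2L2, the NRF2 gene itself, was at 88.0, 83.3 and 83.8 CPM in LARP6 libraries 1, 2 and 3, against 83.8, 79.0 and 75.4 CPM in control libraries 1, 2 and 3. Control library 1 lay above LARP6 library 2 and level with LARP6 library 3, and the log2 difference of 0.10 ± 0.04 did not pass (SE, edgeR adjusted p = 0.112). KEAP1 was at 114 ± 4.02 CPM in LARP6 libraries and 117 ± 2.37 CPM in control libraries, and the repressor gene BACH1 at 18.1 ± 0.672 CPM in LARP6 libraries and 17.0 ± 1.73 CPM in control libraries (SD, n = 3 each). The regulator that rose was NFE2L3, a relative of NRF2, at 167 ± 2.04 CPM in LARP6 libraries and 156 ± 1.51 CPM in control libraries (SD, n = 3 each). Its log2 fold change was 0.10 with an SE of 0.03 (edgeR adjusted p = 0.0314). NFE2L3 lost its call when any 1 of the 6 libraries was left out (adjusted p 0.0658 to 0.127) and with GC and length offsets.

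Other NRF2 targets moved in both directions. Of 29 tested, 1 rose, 4 fell and 24 were not called, with a median log2 fold change of -0.04. The shares over all genes were 2.43% higher and 3.6% lower, with a median of 0.0038. SLC7A11, the cystine transporter that feeds glutathione synthesis, rose to 20.9 ± 1.54 CPM in LARP6 libraries, against 15.1 ± 1.85 CPM in control libraries (SD, n = 3 each), a change of 38.7%. The genes for the subunits of glutamate-cysteine ligase, the first enzyme of glutathione synthesis, did not pass, with GCLC at 0.10 ± 0.06 and GCLM at 0.09 ± 0.04 on the log2 scale (SE, edgeR adjusted p = 0.407 and 0.199). AKR1B1, an aldose reductase that consumes NADPH, fell to 348 ± 13.7 CPM in LARP6 libraries, against 422 ± 17.9 CPM in control libraries (SD, n = 3 each), at -0.28 with an SE of 0.03 on the log2 scale (edgeR adjusted p = 1.80e-13). The glutathione transferase gene GSTP1 changed by -0.16 ± 0.03 (-0.09 with GC and length offsets, still called) and the ferritin heavy chain gene FTH1 by -0.17 ± 0.02. FTH1 has many pseudogene copies, so its value is uncertain where reads could be shared.

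The NADPH list around PGD, TALDO1 and ME1 held NADPH-forming enzymes and also other pentose phosphate enzymes and NAD kinases. Of 21 tested, 2 fell and 19 were not called, with a median log2 fold change of -0.03 over the list. Among all genes tested, 3.6% were called lower, with a median of 0.0038. PGLS, the lactonase of the pentose phosphate pathway, was at 105, 106 and 114 CPM in LARP6 libraries 1, 2 and 3, against 119, 114 and 120 CPM in control libraries 1, 2 and 3. The groups did not overlap, though LARP6 library 3 and control library 2 nearly met, and PGLS fell by 0.12 on the log2 scale (SE 0.03, edgeR adjusted p = 0.0237).

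TKT, transketolase, was at 602 ± 11.1 CPM in LARP6 libraries and 632 ± 4.21 CPM in control libraries (SD, n = 3 each), a difference of -0.07 ± 0.03 that did not pass (SE, edgeR adjusted p = 0.0830). In CPM scaled by TMM, PGLS, PGD, TKT and TALDO1 were thus each below the control range in all LARP6 libraries. The pentose isomerase and epimerase genes RPIA and RPE overlapped. In the authors' FPKM values TKT and TALDO1 stayed below the control range, but PGD and PGLS overlapped. PGLS was at 32.83 to 35.68 FPKM in LARP6 libraries and 34.99 to 36.81 FPKM in control libraries. Of the 21 tested genes of the NADPH list, 7 lay below the control range and 0 above it in TMM-scaled CPM. Over all genes tested the shares were 11.7% below and 10.6% above. The call of PGLS was lost with library size only, with DESeq2, with GC and length offsets, and without LARP6 library 1, LARP6 library 2, control library 1 or control library 3 (edgeR adjusted p up to 0.201 among the fits without a library). Outside that pathway, IDH1, cytosolic isocitrate dehydrogenase, was at 141 ± 1.40 CPM in LARP6 libraries and 141 ± 3.22 CPM in control libraries (SD, n = 3 each).

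In the thiol-reducing systems that TXNRD1, SRXN1 and GSR serve, 4 of 26 genes fell and 22 were not called, against 3.6% of all genes called lower. The split of these calls depended on the scaling, with 2 higher and 2 lower by library size only and 0 called with GC and length offsets. The glutathione peroxidase genes GPX1 and GPX4 changed by -0.14 ± 0.03 and -0.12 ± 0.03 on the log2 scale (SE, edgeR adjusted p = 3.75e-05 and 4.71e-04), and both calls were lost with GC and length offsets. TXN2, mitochondrial thioredoxin, changed by -0.12 ± 0.04 and the peroxiredoxin gene PRDX2 by -0.09 ± 0.03, and both lost their calls with library size only, GC and length offsets and DESeq2, and without control library 1, control library 2, LARP6 library 1 or LARP6 library 2. PRDX2 also lost its call without control library 3. TXN, the cytosolic thioredoxin that TXNRD1 reduces, was at 624 ± 14.4 CPM in LARP6 libraries and 640 ± 11.0 CPM in control libraries (SD, n = 3 each), which overlapped. In the heme and iron list around HMOX1, 2 of 17 genes fell, against 3.6% of all genes. They were FTH1 and the cytochrome P450 reductase gene POR (-0.12 ± 0.04, SE, edgeR adjusted p = 0.0279). POR lost its call with library size only, GC and length offsets and DESeq2, and without any 1 of control libraries 1, 2 and 3 or LARP6 libraries 1 and 2.

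None of the 7 paralogs of the members passed with edgeR, DESeq2 or limma-voom, and 0 of them had an unadjusted edgeR p below 0.05. HMOX2, the constitutive heme oxygenase, was at 66.5 ± 1.34 CPM in LARP6 libraries and 70.0 ± 1.94 CPM in control libraries, and NQO2 was at 69.9 ± 3.81 CPM in LARP6 libraries and 72.5 ± 2.76 CPM in control libraries (SD, n = 3 each). The log2 differences were 0.08 ± 0.06 for OSGIN2, 0.03 ± 0.05 for ME2, 0.04 ± 0.06 for ME3, -0.03 ± 0.07 for TXNRD2 and -0.19 ± 0.11 for TXNRD3 (SE). NQO1 passed and NQO2 did not, but the difference between both was not tested.

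**Figure D4:**
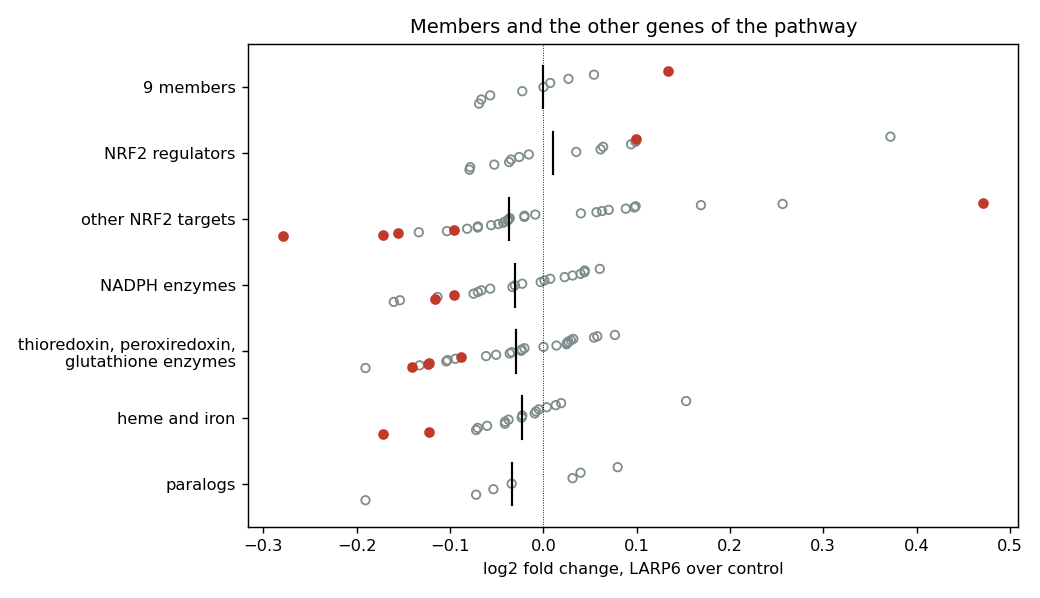
Log2 fold change, LARP6 over control (horizontal axis), of every tested gene of the members and of each list of related genes. Filled red points passed the threshold, open points did not, and vertical bars are list medians. NQO1 is the filled point of the members, SLC7A11 at 0.47 is the highest filled point and AKR1B1 at -0.28 is the lowest. Genes on more than 1 list are drawn on each.

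The genes most like NQO1 over the 6 libraries were CCNL2, EP400 and PTAR1, by the root mean square difference of centred log2 CPM among 11062 genes with a mean of at least 5 CPM. The differences were 0.00988, 0.0126 and 0.0190. With so many candidates and only 6 values, a search finds close matches, and shared regulation was not tested. CCNL2 was at 50.7 CPM in LARP6 libraries and 45.9 CPM in control libraries.

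**Figure D5:**
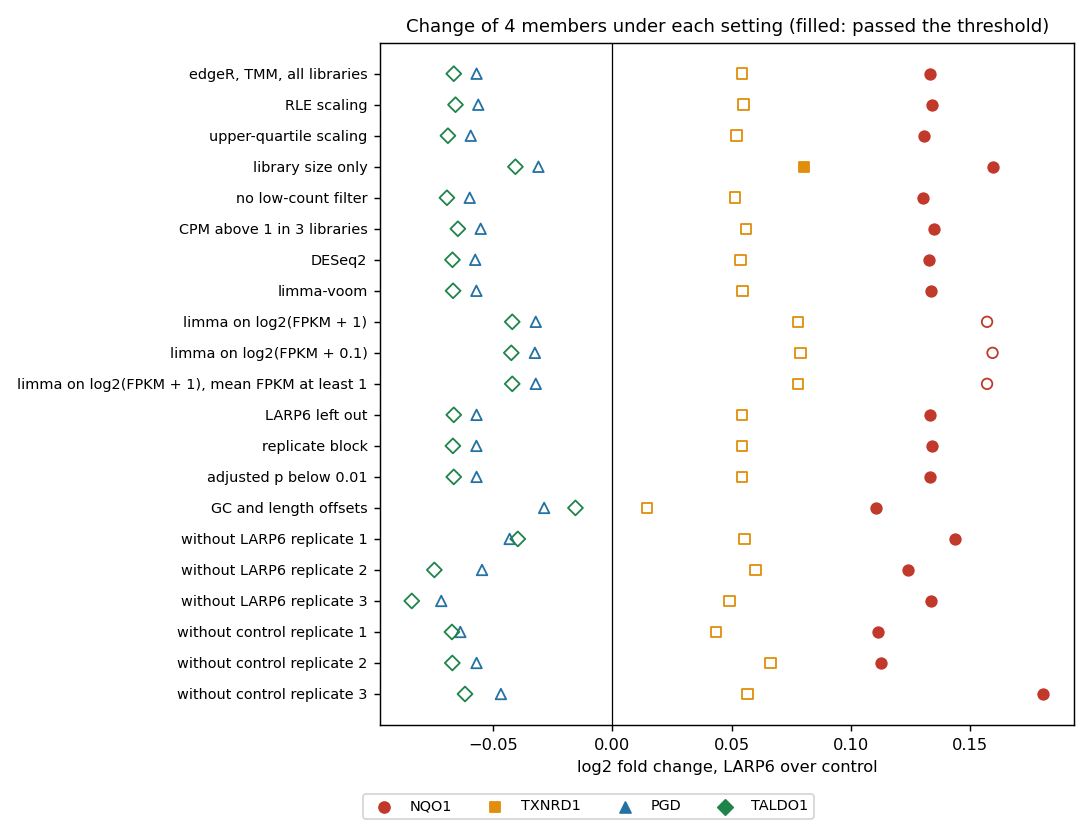
Log2 fold change of NQO1, TXNRD1, PGD and TALDO1, LARP6 over control (horizontal axis), under each analysis setting (rows). Filled symbols passed the threshold and open symbols did not. NQO1 stayed between 0.11 and 0.18 and TXNRD1 between 0.014 and 0.08, while PGD and TALDO1 stayed below 0 in all 21 rows.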

How the data were processed

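MDA-MB-231 libraries of 2 groups were compared (LARP6 and control, 3 each), grouped by title. Libraries were made from total RNA with a stranded mRNA kit and sequenced as paired reads, per the labels' protocols. The authors deposited raw read counts per gene and FPKM values per gene. The submitters' processing notes list HISAT2, DESeq2 and GRCh38. Which program counted the reads, whether by strand, and with which annotation and gene lengths is not given in the sources used here. Counts on overlapping genes may therefore be shared.

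Counts were tested with edgeR 4.0.16 (R 4.3.3): expression filter, TMM scaling, robust quasi-likelihood test, no covariate, adjusted p below 0.05. Standard errors are the log2 fold change divided by the root of the F statistic, and 95% intervals follow from them without adjustment. Alternatives used DESeq2 1.42.0 and limma 3.58.1. Library pairs of a group differed by a chi-square of 2.06 to 3.65 per gene, more than counting error gives, so none was treated as a library deposited again. This does not show that they are separate cultures. Coordinates, GC content and length are from GENCODE v29. The common coefficient of variation was 3.23%, and the scripts were tested on simulated data.

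The members and lists were chosen with earlier results of these data known. Named genes are all members, LARP6, a fixed set of pathway genes and paralogs, up to 6 called genes per list by smallest p, and the 3 genes most like each called member. The pentose isomerase and epimerase genes were named to complete their pathway after values were seen. Some genes of the lists enter the counts and medians but are not reported here.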

Additional observations from a re-analysis of the deposited data

How the results depend on the processing

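The genes called numbered 979 by edgeR, and 550 with DESeq2, 443 at an adjusted p below 0.01 and 631 with GC and length offsets. Limma called 3 genes on log2(FPKM + 1), 23 on log2(FPKM + 0.1) and 155 on log2(FPKM + 1) with a mean FPKM of at least 1. Leaving out each library in turn gave 456 to 1040 calls. Dropping LARP6 library 1 left 459, dropping LARP6 library 2 left 456, and dropping control library 2 left 650. Called members numbered 1, and 2 with library size only (NQO1 and TXNRD1) and 0 with each of the 3 FPKM fits. They remained at 1 under all other settings, leaving out libraries included. Of the related genes outside the members, 12 were called, against 6 at an adjusted p below 0.01, 6 with GC and length offsets, 0 with both unfiltered FPKM fits and 2 with the filtered one, and 6 to 14 with each library left out, the lowest when LARP6 library 1 or 2 was dropped.

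HMOX1, SRXN1 and ME1, at -0.02, 0.00013 and 0.0074 on the log2 scale and called under no setting, changed sign. HMOX1 was at 0.0034 with library size only, 0.0016 and 0.0018 on FPKM with a pseudocount of 1 and 0.1, 0.0016 on filtered FPKM, and 0.029 with GC and length offsets. SRXN1 was at -0.0024 with upper-quartile scaling, -0.0027 without a low-count filter and -0.00038 with DESeq2, and at -0.036 to 0.026 with each library left out. ME1 was at -0.054 with GC and length offsets and at -0.066 to 0.070 with each library left out. The cause was not tested.

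Same-numbered LARP6 and control libraries had deviations correlated at 0.035, 0.0073 and 0.050. Differently numbered LARP6 and control libraries had correlations of -0.063 to 0.029. The labels state no pairing, and whether the replicate numbers mark one was not tested. With the replicate block, 1345 genes and 1 member passed, and NQO1 was at 0.13 (adjusted p = 5.28e-04). At 499 to 563 counts per library, depth limits OSGIN1 most.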
